A study of Homo sapiens with 5 samples.

Results

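CCL22, CX3CL1 and CCL17 are 3 chemokine genes that follow each other on human chromosome 16, and the open chromatin around them was examined in DNase-seq peak lists of 5 cell lines. The enzyme DNase I cuts accessible chromatin most readily, and a peak is a stretch of the genome in which the sequenced fragments pile up. Members were all peaks of the 5 lists that overlap a window of 110 kb, from 55.92 to 56.03 Mb of chromosome 16 in build hg18, with CCL22 at about 55.950 to 55.958 Mb, CX3CL1 at 55.964 to 55.976 Mb and CCL17 at 55.996 to 56.007 Mb. These gene positions are rounded to 1 kb, and no hg18 annotation was used here. The window held 21 of the 109231 peaks on chromosomes 1 to 22 and X. The outermost of them lay 10.9 kb inside the left edge and 21.0 kb inside the right edge, and the nearest peak outside was an L428 peak 1.54 kb past the right edge.

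The Hodgkin group was L1236, L428 and L591, 3 lines from Hodgkin lymphoma. In the non-Hodgkin group were Reh, a line of pro-B lymphoblastic leukaemia, and Namalwa, a Burkitt lymphoma line. Every line was used at passage 7 without any treatment other than digestion of its nuclei, with DNase I at 12 U/ml in L591 and Namalwa and at 6 U/ml in the other 3 lines. Each line gave 1 list, so the lines are the replicates of a group, no error within a line is known, and each is a long-cultured line from 1 patient. The Namalwa list was the shortest with 5760 peaks, and the other 4 held from 23288 (L428) to 27925 (Reh); the read depth behind them is unknown. The lists hold peaks and no expression values, so the identity of the lines was not checked against marker genes.

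Chemokines are small secreted proteins that draw in cells bearing the matching receptor. CCL17 (also TARC) and CCL22 (also MDC) both bind CCR4, a receptor of T helper 2 and regulatory T cells, and the malignant cells of Hodgkin lymphoma are known to secrete them and to sit among many such T cells. CX3CL1 (fractalkine) binds CX3CR1 and is unusual among chemokines in that it is made as a membrane-anchored protein whose outer part can be shed. In the RefSeq order of genes on GRCh38.p14 no other gene is listed between these 3, and RPL23AP91, a pseudogene, and CIAPIN1 are the neighbours on either side.

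The promoter of CCL22 is shown because a peak lay over the start of this gene in 1 line. The RefSeq table gave a promoter for 1 of the 3 genes. It spans chr16:57358533-57358832 of GRCh38.p14, plus strand, 250 bases before to 50 after the gene's start. Capitals mark the single match among the motifs searched.

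CCL22 promoter: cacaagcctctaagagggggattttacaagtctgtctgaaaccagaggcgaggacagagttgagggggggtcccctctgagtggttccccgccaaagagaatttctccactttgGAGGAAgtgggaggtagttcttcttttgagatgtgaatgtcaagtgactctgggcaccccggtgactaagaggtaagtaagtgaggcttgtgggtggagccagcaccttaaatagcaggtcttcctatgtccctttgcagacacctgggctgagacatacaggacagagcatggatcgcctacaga

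The capitals are GAGGAA, a core of the sites of PU.1 and related ETS factors, which begins 136 bases before the start and is found on either strand in 27.9% of 35116 promoters of this length. The other motifs searched on both strands were GGGNNTTTCC and GGGNNNTTCC for NF-kB, TGANTCA for AP-1, TTCNNNGAA for STAT factors, TTCNNNNGAA for STAT6, GAAANNGAAA for IRF factors, the E-box CACGTG and the TATA box TATAAA. None of these letters is in this window, and each is found in 1.91% to 11.5% of all promoters. The 2 NF-kB patterns can overlap each other.

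The first comparison asked whether the chemokine genes lie in open chromatin in both groups. L1236 had 6 peaks in the window, L428 had 8 and L591 had 7, while Reh and Namalwa had 0. The map of peaks along the window shows every peak in a Hodgkin line. Of 422 stretches of 110 kb with at least 21 peaks of the Hodgkin lines, 14.2% likewise had no Reh or Namalwa peak. Of all 14580 stretches of this length with a peak of any line, 39.5% had no Reh peak and 76.5% no Namalwa peak. The share of all stretches in which the groups do not overlap, as in this window, was not computed. Per 10000 peaks of its own list, the window held 2.34 peaks in L1236, 3.44 in L428 and 2.63 in L591, a mean of 2.80 ± 0.568 (SD, n = 3) against 0 in both other lines. In a two-sided exact permutation test over the 10 assignments of the group labels, p = 0.1, which is the smallest p that 3 lines against 2 can give. The peaks covered 3340 bp of the window in L1236, 3760 bp in L428 and 3840 bp in L591, a mean of 3647 ± 269 bp (SD, n = 3), and 0 bp in Reh and Namalwa, again with exact permutation p = 0.1. The window was chosen with results of these data known, so both p-values are descriptive and not an independent test.

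**Figure D1:**
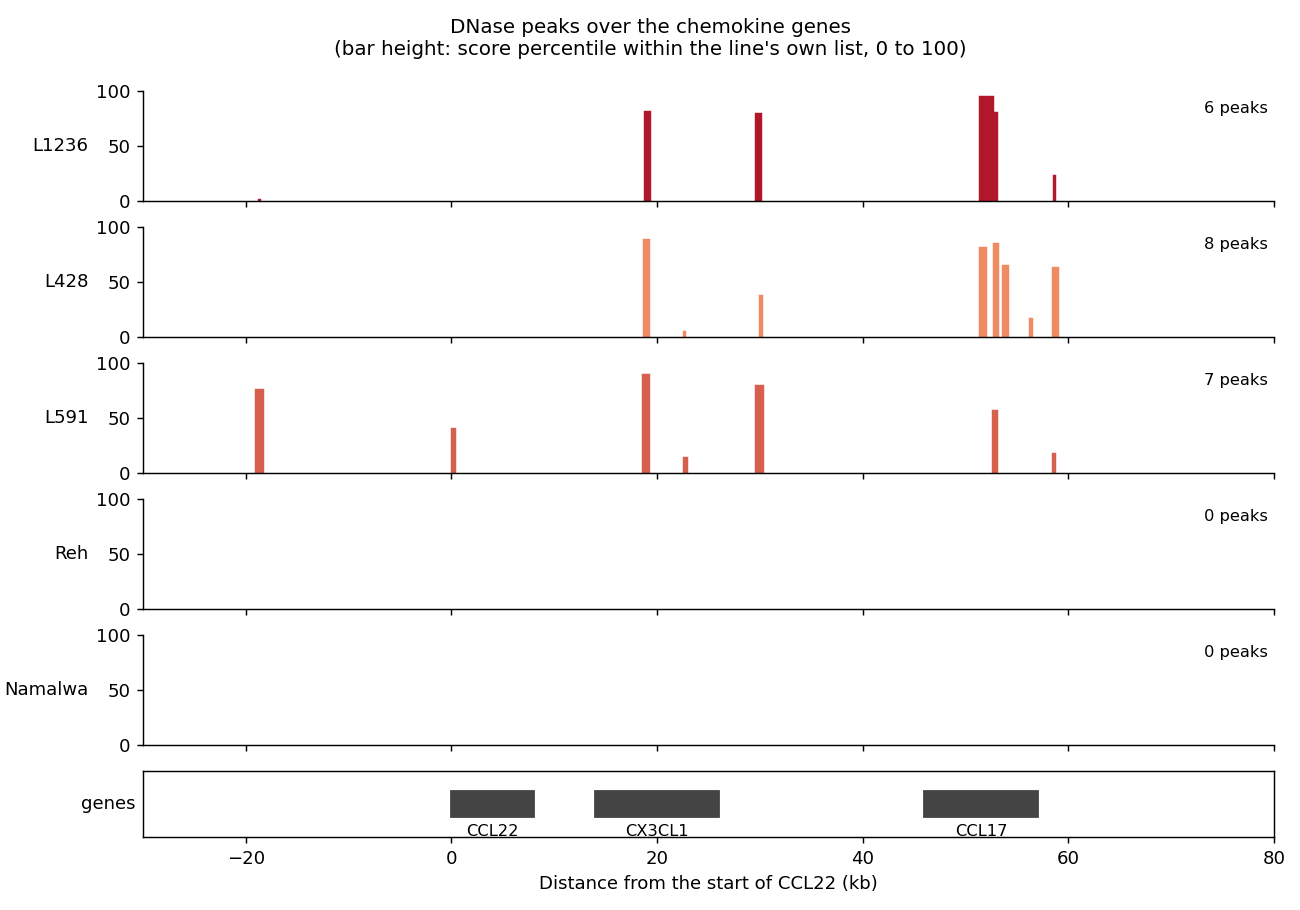
Peaks of the 5 lines along the window, as distance in kb from the start of CCL22, with bar width to scale and bar height the percentile of the peak's score within its own list. The 21 peaks all belong to L1236, L428 and L591, and the tracks of Reh and Namalwa are empty.

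The 2 non-Hodgkin lists differ in how many peaks their length would lead to here. At the mean Hodgkin rate of 2.80 per 10000, a list as long as that of Reh would hold 7.82 peaks in the window and one as long as that of Namalwa 1.61. At 6 U/ml DNase I there were 6 and 8 peaks against 0 in Reh, and at 12 U/ml 7 against 0 in Namalwa. With 0 in both non-Hodgkin lines any split of the lines gives this order, so an effect of the concentration was not tested. A peak list holds only what passed the authors' peak calling, so a stretch without a peak is not shown to be closed.

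Joined across lines wherever they shared at least 1 bp, the 21 peaks formed 9 merged regions. A peak of all 3 Hodgkin lines was found in 4 of the 9, of exactly 2 in 2 and of 1 line in 3. Over the genome, 4.33% of 59212 merged regions were open in this way, with a peak of every Hodgkin line and of neither other line (Hodgkin-only regions). No region of the window had a Reh or Namalwa peak, which held for 55.9% of merged regions in general and for 32.1% of the 7998 regions with a peak in all 3 Hodgkin lines. The 4 regions of all 3 lines lay inside CX3CL1, between CX3CL1 and CCL17, inside CCL17 and just past the end of CCL17, and none lay in or before CCL22.

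CCL22 had the fewest peaks of the 3 genes. L591 had 1 peak at chr16:55949921-55950380, 460 bp wide and over the start of the gene, at percentile 41.1 of the L591 list, where the percentile is the share of the list's peaks whose score is as high or lower. L1236, L428, Reh and Namalwa had 0 peaks within 5 kb of the start and 0 in the span of the gene. The lists of the Hodgkin lines thus differed at CCL22, but by 1 peak, which stood at percentile 28.7 by score per bp. The missing peaks do not show that the chromatin was closed in L1236 or L428. Upstream, 18.7 kb before the gene, L591 had a 730 bp peak at chr16:55930901-55931630 and percentile 76.9, and L1236 a 170 bp peak inside it at percentile 2.46, near the bottom of its list. L428 had 0 peaks there.

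CCL17, the other CCR4 ligand, had the widest open stretch, and the 3 lines used it in different parts. Region chr16:56001271-56003180, whose centre lay 6.23 kb past the start of the gene, joined 5 peaks. L1236 had a peak of 1360 bp at percentile 95.5, the highest rank by score in the window, and 10 bp further a 400 bp peak at percentile 81.0. The score is an area that grows with width, and by score per bp the order of these 2 peaks turned, with the wide one at percentile 57.6 and the narrow one at 89.3. L428 had peaks of 660 bp and 550 bp at percentiles 82.3 and 85.5, and L591 had a single peak of 480 bp at percentile 57.1. The part shared by all 3 lines was the right-hand 400 bp, chr16:56002641-56003040, or 20.9% of the bases covered by any of them. The left-hand part, from 56001271 to about 56002630, was covered in L1236 and, over 660 bp, in L428, and L591 reached only its last bases. With an overlap of 50% of the shorter peak required, the left-hand and right-hand parts were separate regions, and the window held 10.

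Further right within CCL17, L428 alone had 2 peaks. One at chr16:56003581-56004170 was 590 bp wide at percentile 65.8 by score but 6.15 by score per bp, and the other at chr16:56006181-56006430 was 250 bp wide at percentile 17.6. In all, the span of CCL17 held 4 peaks of L428 covering 2050 bp, 2 of L1236 covering 1760 bp and 1 of L591 covering 480 bp. No line had a peak within 5 kb of the start of CCL17 as placed here. The RefSeq span of CCL17 on GRCh38.p14 is 19971 bp, against 11 kb for the span used here. Whether the added length lies before the start used here was not checked.

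Just past CCL17, 1.70 kb beyond its end, all 3 Hodgkin lines had a peak in region chr16:56008391-56009010. The L428 peak was 620 bp wide at percentile 64.0, the L1236 peak 250 bp at percentile 24.1 and the L591 peak 340 bp at percentile 18.4. By score per bp the same peaks were at percentiles 0.408, 11.4 and 10.1, so this region was common to the 3 lines but low in each of them per base.

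CX3CL1, the ligand of CX3CR1, held the most evenly shared region. At chr16:55968531-55969270, centred 4.90 kb past the start of the gene, L1236 had a 590 bp peak at percentile 81.6, L428 a 600 bp peak at 89.5 and L591 a 730 bp peak at 90.5. All 3 ranked in the upper part of their lists. Their common part, chr16:55968681-55969200, was 520 bp, or 70.3% of the bases covered by any of the 3, where the median over all 2566 Hodgkin-only regions was 47.2%. The other Hodgkin-only regions of the window were below this median, at 19.0% between CX3CL1 and CCL17, 20.9% in CCL17 and 38.7% past CCL17. A second site within CX3CL1, at chr16:55972511-55972860, had a 350 bp peak of L591 at percentile 14.9 and a 180 bp peak of L428 at 5.39, and none of L1236. Within the span of the gene, peaks covered 590 bp in L1236, 780 bp in L428 and 1080 bp in L591.

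Between CX3CL1 and CCL17, all 3 lines had a peak in region chr16:55979511-55980300, 3.91 kb past the end of CX3CL1 and 16.1 kb before the start of CCL17. It was 570 bp wide at percentile 79.8 in L1236 and 750 bp at 80.5 in L591, but 310 bp at 38.0 in L428. The L428 peak lay at the right-hand side, so that 150 bp were common to the 3 lines, 19.0% of the bases covered. L1236 and L591 were thus close in rank at this site and L428 was lower, also by score per bp (63.2 and 74.6 against 25.4).

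**Figure D2:**
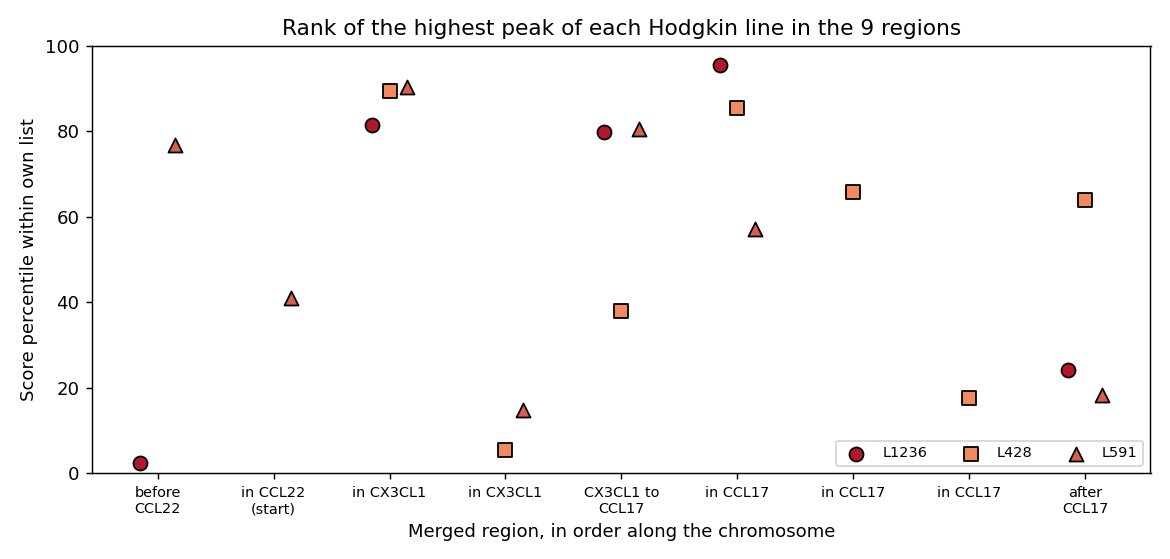
Score percentile within its own list of the highest peak of each Hodgkin line in the 9 merged regions, in order along the chromosome. In the region of CX3CL1 that all 3 lines share, the third from the left, they lie from 81.6 to 90.5, and in the shared region of CCL17, the sixth, from 57.1 in L591 to 95.5 in L1236.

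The peaks of the window spread widely over each list by score. The lowest, median and highest percentiles were 2.46, 80.4 and 95.5 in L1236, 5.39, 64.9 and 89.5 in L428 and 14.9, 57.1 and 90.5 in L591. Of the 21 peaks, 10 were in the top 25% of their list by score and 6 in the lowest 25%, so weak and strong sites stood side by side. Of the 21 peaks, 14 were wider than the median peak of their own list and 10 had a score per bp below its median, where 50% of any list lies on either side. In the 4 regions shared by all 3 lines, L1236 peaks had a median percentile of 80.7, L428 peaks 74.7 and L591 peaks 68.8, beside 64.6, 60.8 and 60.5 over all Hodgkin-only regions. When every list was shortened to its 5760 highest-scoring peaks, 4 peaks of L1236, 3 of L428 and 2 of L591 were left in the window. They lay in CX3CL1, between CX3CL1 and CCL17 and in CCL17, and the region in CX3CL1 was the only one that kept a peak of all 3 lines.

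The neighbourhood of the window held peaks of all 5 lines. In the 1 Mb on either side, both flanks summed, Reh had 51 peaks and Namalwa 11, against 31 in L1236, 32 in L428 and 36 in L591. Per 10000 peaks this was 18.3 in Reh and 19.1 in Namalwa and a mean of 13.1 ± 0.899 (SD, n = 3) in the Hodgkin lines (difference -5.56, two-sided exact permutation p = 0.1, the smallest possible). Most of the Reh excess lay before the window, with 35 peaks against 18 in L1236, 20 in L428 and 21 in L591. Past the window Reh had 16 peaks against 13, 12 and 15, or 5.73 per 10000 beside 5.64 in L591, and the Namalwa value of 8.68 rests on 5 peaks. Of the 79 merged regions in these flanks, 49 had a Reh or Namalwa peak, 6 were Hodgkin-only and 6 had a peak in all 5 lines. A region of all 5 lines at chr16:55890931-55892370 lay 27.6 kb before the window. On the other side, region chr16:56038591-56039000, 8.59 kb past the window, had peaks of Reh, L428 and L591. Reh thus had 0 peaks over 146.5 kb between these sites. Copy number of this part of chromosome 16 was not measured in these data, and its part in the difference was not tested.

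**Figure D3:**
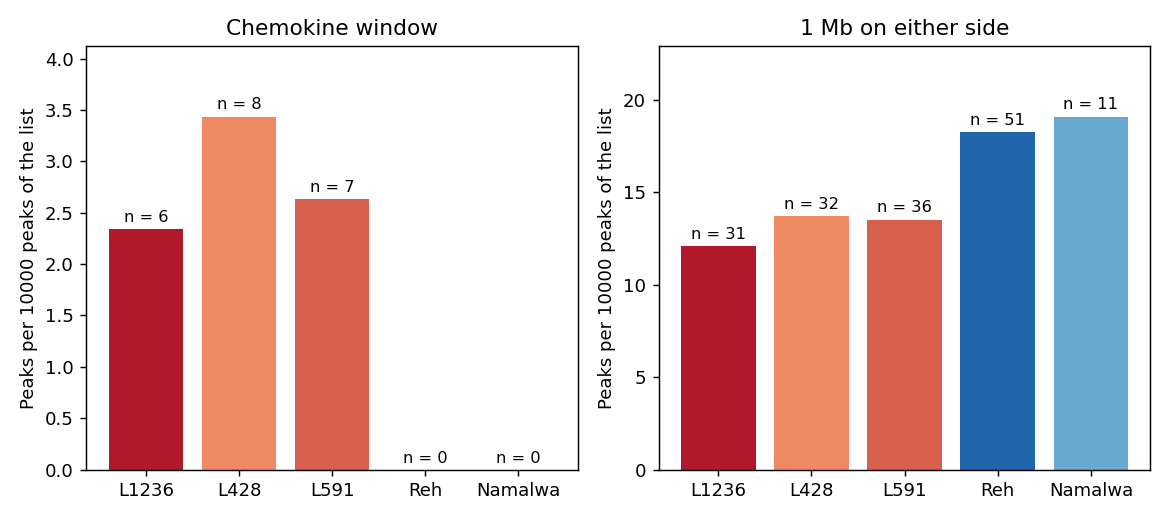
Peaks per 10000 peaks of each line's list in the window (left) and in the 1 Mb on either side of it (right), with the number of peaks above each bar and 1 list per line. Reh and Namalwa have no peak in the window but the highest bars in the flanks, 18.3 and 19.1.

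To place the window among others of its size, chromosomes 1 to 22 and X were cut into adjoining stretches of 110 kb, and 14580 of these held at least 1 peak of any line. At least 4 Hodgkin-only regions, the number found here, were present in 0.364% of them. That number fell to 1 with lists of equal length and to 2 with the upper 50% of each list by score, and the share of stretches was not computed for those settings. No Reh peak was present in 39.5% of the stretches and no Namalwa peak in 76.5%, so an empty stretch was common in itself. Stretches with at least 21 peaks of the 3 Hodgkin lines were few, 422 in all, and 14.2% of these, or 60, had neither a Reh nor a Namalwa peak. The median number of Reh peaks in the 422 was 5. The chemokine window was laid around the genes and was chosen with results of these data known, so these shares are a description and not a test.

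**Figure D4:**
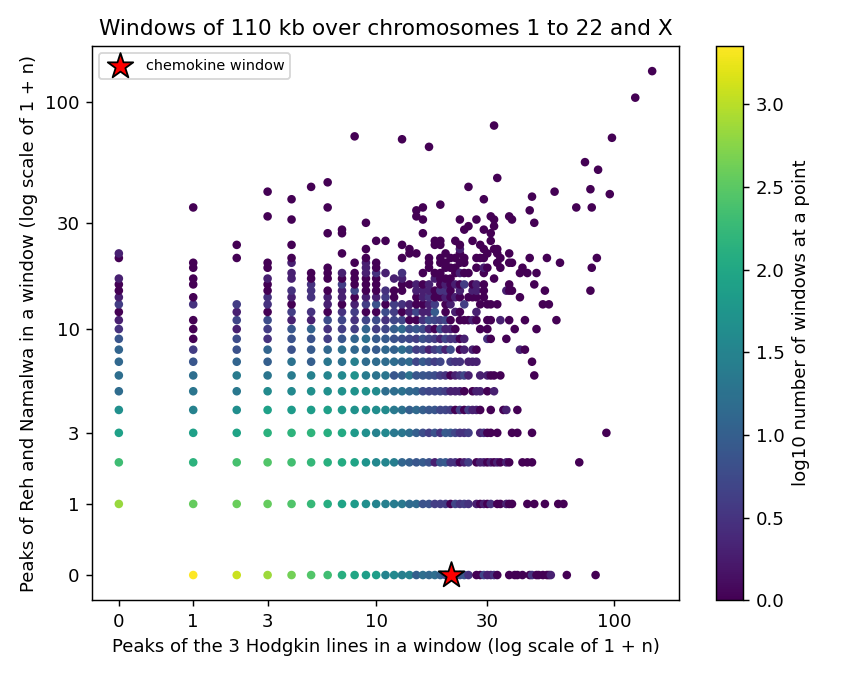
Peaks of the 3 Hodgkin lines (x axis) against peaks of Reh and Namalwa together (y axis) in stretches of 110 kb, both on a log scale of 1 + n, with colour for the number of stretches at a point. The chemokine window, marked by a star, has 21 Hodgkin peaks and 0 others. Of the 422 stretches with at least 21 Hodgkin peaks, 60 (14.2%) also have 0 others.

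The stretches most like the chemokine window were those with the smallest Euclidean distance in log2(1 + number of peaks) over the 5 lines. The nearest was on chromosome 20 from 52.03 to 52.14 Mb, with 7 peaks in L1236, 7 in L428 and 6 in L591 and a distance of 0.321. The next were on chromosome 7 from 138.93 to 139.04 Mb (distance 0.340) and on chromosome 2 from 98.78 to 98.89 Mb (0.363). A stretch on chromosome 8 from 72.82 to 72.93 Mb (0.459) and one on chromosome 2 from 87.67 to 87.78 Mb (0.594) completed the 5. All 5 had 0 peaks in Reh and in Namalwa, which follows from the choice, since the distance counts these lines too. The 5 stretches held 3 or 4 Hodgkin-only regions. Likeness here is over 5 lists only.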

How the data were processed

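The submitters' processing notes name Bowtie 1.00 and build hg18. Per the file headers, that is the name columns, reads had been extended to 146 bp and counted in 10 bp bins. In these names 4 lists are marked qcTrimmed and that of L1236 is not, and whether this affects its ranks beside those of L428 and L591 was not tested. The growth protocol in the labels misspells L591, which was taken from its title. Which program called the peaks, and at what threshold, is not given in the sources used here. The score deposited by the authors for each peak is its area, with no stated scaling to depth, so scores served only as ranks (percentiles) within a list. Nothing in the labels says that a line was sampled more than once.

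Peaks of chromosomes 1 to 22 and X were kept, with 1-based positions. Peaks sharing at least 1 bp were joined into merged regions, and Hodgkin-only means that each of the 3 Hodgkin lines had a peak and that Reh and Namalwa had none. The window and gene spans, the motif list and the tests were chosen with earlier results of these data known. All merged regions of the window were named, with the 5 most alike stretches. Group means were compared by two-sided exact permutation. Promoter letters are from RefSeq (GRCh38.p14), whose coordinates were not set against the hg18 peaks. Counts over other chemokine and receptor genes were planned but not run, since they need an hg18 annotation. Merging was checked on simulated lists. Calculations used Python 3.11.15, numpy 2.4.6 and pandas 2.3.3, and figures matplotlib 3.10.9. Alternatives covered list length, the upper 50% by score, the overlap rule, peak width, joining, the window and each line left out.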

Additional observations from a re-analysis of the deposited data

How the results depend on the processing

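Reh and Namalwa had 0 peaks in the window in every setting that kept or narrowed it. This was fixed in advance, since such settings bring no new peak into the window. Only the widened window could bring in Reh or Namalwa peaks. There the differences were 2.85 peaks per 10000 and 4960 covered bases, with more in the Hodgkin lines. The widened window contains the main one, where they were 2.80 and 3647, so this is no separate result. The added sequence was not compared between the groups by itself. With lists of equal length the window held 4 merged regions, 1 of them Hodgkin-only, and with the upper 50% by score 2 were Hodgkin-only. Fewer peaks enter under both settings. Widened by 50 kb on either side, the window held 19 merged regions, 3 of them with a Reh or Namalwa peak (4 Reh and 2 Namalwa peaks), and 4 Hodgkin-only. With each line left out in turn, merged regions ranged from 7 to 10 and Hodgkin-only regions from 4 to 5. Peaks per 10000 ranged from 2.48 to 3.03 and covered bases from 3550 to 3800. Without a Hodgkin line, a Hodgkin-only region needed a peak of only the 2 that remained, a looser rule than in the main setting. The exact permutation p with 1 line left out was 0.25 to 0.333, the smallest that 4 lines allow. Ranked by score per bp, the best peak of the window stood at percentile 93.4 (L591), 89.3 (L1236) and 84.7 (L428), which puts L591 first in place of L1236. In L1236 this is the 400 bp peak in CCL17 and not the widest one. No paired analysis was possible because the labels give no replicate numbers that pair lines of the 2 groups. Depth is unknown, so whether weaker sites in Reh and Namalwa fell below the peak threshold was not tested.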
